A study of Homo sapiens with 12 samples.

Results

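The mitochondrial ribosomal proteins were taken as every gene whose symbol is MRPL or MRPS, a number and, in some cases, a letter from A to C. This rule uses names alone, and it found 76 of the 56638 gene symbols in the count table. They fell into 30 large-subunit proteins with a bacterial counterpart, 19 large-subunit proteins found only in mitochondria, 16 small-subunit proteins with a bacterial counterpart and 10 found only in mitochondria. The remaining 1, MRPS36, carries the symbol, but its product is now assigned to the 2-oxoglutarate dehydrogenase complex. Enough reads for a test were present for 75 members among the 16080 genes tested, while MRPL30 held between 0 and 6 counts per library and was not tested.

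501Mel is an established human melanoma line whose growth depends on mutant BRAF. The cells were kept for 48 h with the solvent DMSO (vehicle), with 1 µM of the BRAF inhibitor vemurafenib (Vem), with 10 nM TCDD, a classical agonist of the aryl hydrocarbon receptor (AhR), or with 5 µM resveratrol (RSV), used as an AhR antagonist. RSV was also combined with Vem (RSV+Vem) and with TCDD (RSV+TCDD), which gave 6 groups of 2 libraries. The sample labels give 1 nM TCDD for RSV+TCDD and 10 nM for TCDD alone, whereas the treatment protocol gives 10 nM. If the labels hold, RSV+TCDD differs from TCDD in dose as well as in RSV, and these cannot be told apart. The effects of TCDD with and without RSV would then also be at unlike doses. All groups were the same line, so the data describe a single cell line in culture, and the labels do not say whether the 2 libraries of a group came from separate cultures. The p-values below therefore measure only the spread between these libraries, which may be technical. In bulk RNA, a change in all cells cannot be told apart from a change in the share of cells with a high level.

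Mitochondria keep ribosomes of their own, which translate the few proteins still encoded by mitochondrial DNA, core subunits of the respiratory chain and of ATP synthase. The ribosomal RNA of these particles is made inside the organelle, but their proteins are encoded in the nucleus, made in the cytosol and imported. The large subunit joins amino acids and holds the exit tunnel, and the small subunit binds the mRNA and reads its codons. In melanoma cells, the lineage factor MITF and the coactivator PPARGC1A are known to raise genes of mitochondrial respiration.

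Promoters of these genes often carry short motifs of housekeeping transcription factors, and RefSeq promoter windows on GRCh38.p14 (250 bases before to 50 after the start) were found for 67 of the 76 members. The string CCGGAAG, the core of ETS-family sites, was present on either strand in 28 windows (41.8%), against 10.3% of all 35116 windows. The YY1 string AAGATGGC was found in 20 (29.9%), against 2.89%. The XRE core GCGTG, to which AhR with ARNT binds, was found in 38 (56.7%), against 36.5%. The E-box CACGTG was found in 6 (8.96%) against 7.26%, and the palindromic NRF1 string of 10 letters in 1 (1.49%) against 1.24%. None of these 5 strings contains another, both strands were searched, and a match describes letters in a window, not a bound site. All windows served as the comparison set, without matching to the members in GC content or expression. MRPL46 and MRPS11 are divergent neighbours whose windows overlap, but only the window of MRPL46 held a match, to the YY1 string. The windows of 4 members are shown up to 30 bases after the start, with matches to the ETS, YY1 and NRF1 strings in capitals. They were chosen after the values were seen. MRPL3 (chr3:131502942-131503221, minus strand) is the member that fell most with RSV alone and holds an ETS match. MRPS12 (chr19:38930704-38930983, plus strand) rose with Vem and holds an ETS and a YY1 match. MRPL17 (chr11:6683311-6683590, minus strand) fell in both Vem comparisons and holds the only NRF1 match. MRPL52 (chr14:22829637-22829916, plus strand) shows a YY1 repeat close to an ETS match on the other strand.
MRPL3: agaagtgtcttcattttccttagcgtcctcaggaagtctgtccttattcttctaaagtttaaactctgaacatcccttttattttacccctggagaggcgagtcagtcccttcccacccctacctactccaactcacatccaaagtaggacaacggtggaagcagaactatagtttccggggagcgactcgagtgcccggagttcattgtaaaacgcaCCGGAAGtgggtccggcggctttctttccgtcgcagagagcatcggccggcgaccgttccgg
MRPS12: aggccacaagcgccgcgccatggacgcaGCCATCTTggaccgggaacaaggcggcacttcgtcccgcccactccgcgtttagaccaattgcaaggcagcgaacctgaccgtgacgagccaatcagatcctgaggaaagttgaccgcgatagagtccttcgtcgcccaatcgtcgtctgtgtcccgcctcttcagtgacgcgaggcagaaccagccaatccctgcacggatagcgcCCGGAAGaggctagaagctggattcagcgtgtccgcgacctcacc
MRPL17: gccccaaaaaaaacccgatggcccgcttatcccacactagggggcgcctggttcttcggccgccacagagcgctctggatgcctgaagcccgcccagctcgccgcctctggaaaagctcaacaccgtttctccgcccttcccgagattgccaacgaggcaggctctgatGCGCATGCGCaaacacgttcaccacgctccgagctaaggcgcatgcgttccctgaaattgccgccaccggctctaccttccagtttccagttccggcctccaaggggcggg
MRPL52: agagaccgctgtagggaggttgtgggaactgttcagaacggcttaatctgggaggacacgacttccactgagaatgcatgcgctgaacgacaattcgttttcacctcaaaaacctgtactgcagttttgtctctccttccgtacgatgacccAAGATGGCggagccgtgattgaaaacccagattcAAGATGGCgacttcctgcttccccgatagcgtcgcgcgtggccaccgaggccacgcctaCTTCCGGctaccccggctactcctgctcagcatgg

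The libraries held between 8378655 (RSV+Vem 2) and 25076925 counts on genes, of which between 33801 and 110144 fell on the members. The spread within groups exceeded counting noise (chi-square divided by its degrees of freedom from 4.61 with TCDD to 22.6 with vehicle), and the common biological coefficient of variation was 0.0915. RIN values ranged from 8.6 to 9.7, and both RSV+Vem libraries were lowest at 8.7 and 8.6. The ERCC spike-ins held 0.0310% to 0.0936% of all counts, and their share differed 2.32-fold between the RSV+Vem libraries and 1.49-fold between the RSV+TCDD libraries. Melanocyte markers were high in all 12 libraries, with PMEL between 5699 and 22338 CPM (counts scaled to library size). The 11 markers of other cell types summed to between 7.61 and 39.6 CPM, mostly LUM, and PECAM1 was at 0 throughout. Their sum was 7.61 to 8.14 CPM with Vem, 31.8 to 39.6 with TCDD and 9.63 to 16.7 in the other groups, and its part in the results was not tested. With 2 libraries in each group an exact permutation test cannot go below p = 0.333, so the tests below rest on a model fitted to all genes.

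Levels of the members spanned a wide range. Per kilobase of transcript and averaged over the 12 libraries, the highest were MRPL20 with 114 CPM, MRPL34 with 111 and MRPS21 with 103, and the lowest were MRPS24 with 1.61, MRPL38 with 2.09 and MRPL42 with 3.17. The transcript used for MRPL42 was 15557 bases long. MRPS24 and MRPL38 instead share 90.9% and 94.3% of their exon bases with another gene on the same strand in a GENCODE annotation on GRCh37, and MRPL53 and MRPS5 share 99.2% and 97.1%. Reads that overlap several genes are left out by default in featureCounts, so levels of such members may be understated. Sharing was 43.4% for MRPS25, 56.2% for MRPS28, 69.5% for MRPL12, 52.1% for MRPL2, 73.4% for MRPL46 and 22.3% for MRPL19, which are named below. For the untested MRPL30 it was 12.7%. Its overlap in the annotation that was counted is not known, so its few counts may not reflect its level. The 66 pseudogenes named after members held only 36 to 96 counts per library in all.

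Summed over the 75 tested members, the level was 4187 and 4456 CPM with vehicle, 4477 and 4865 with Vem, 4481 and 4511 with TCDD, 3696 and 3666 with RSV, 3960 and 3801 with RSV+Vem, and 3702 and 3968 with RSV+TCDD. On this TMM scale, the 6 libraries without RSV all lay above the 6 libraries with it. Per spike-in count that order did not hold. RSV 1 had 61306 counts on members and 5366 on the spike-ins, against 64384 and 7053 in Vem 1. The groups averaged 4321 ± 190 CPM (SD, n = 2) with vehicle, 4671 ± 274 with Vem and 3681 ± 21.3 with RSV. Respiratory chain subunits encoded in the nucleus and cytosolic ribosomal proteins, plotted beside the members, followed other orders. Respiratory subunits were highest with Vem, at 18126 ± 1126 CPM against 10712 ± 18.2 with vehicle, and cytosolic ribosomal proteins were highest with TCDD, at 70669 ± 354 against 52297 ± 498.

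**Figure D1:**
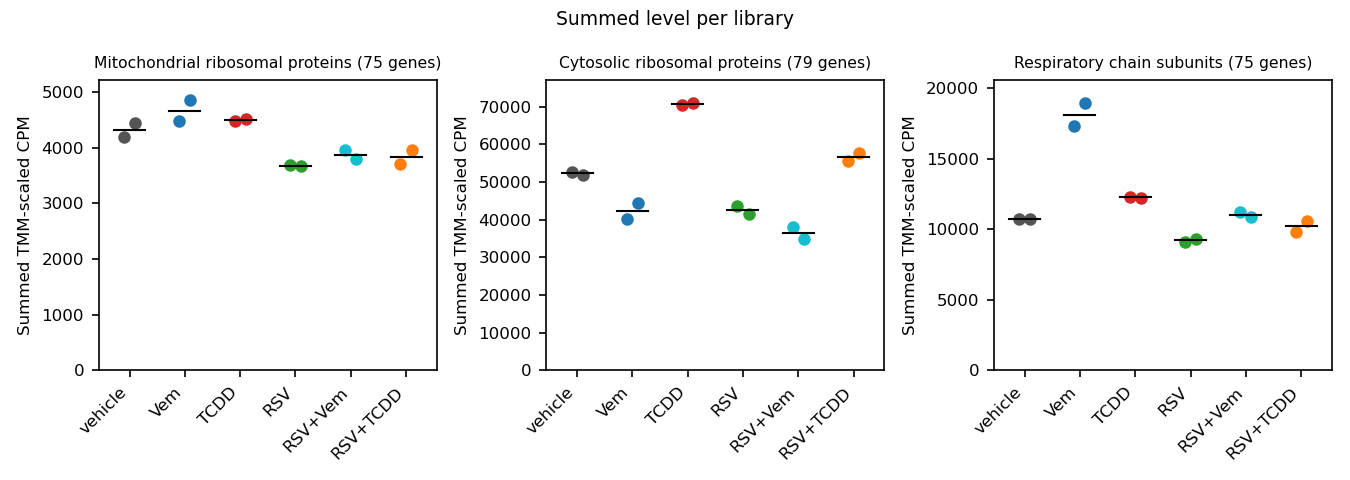
Summed TMM-scaled CPM per library (points) with the group mean (line) for 75 mitochondrial ribosomal protein genes, 79 cytosolic ribosomal protein genes and 75 nuclear respiratory chain genes in the 6 treatment groups. The members' sum lies between 3666 and 3968 CPM in the RSV libraries and between 4187 and 4865 in the others, an order that does not hold per spike-in count.

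The effect of RSV could be measured in 3 comparisons that share no libraries: RSV against vehicle, RSV+Vem against Vem (RSV added to Vem) and RSV+TCDD against TCDD (RSV added to TCDD). In each, many more members fell than rose, by the quasi-likelihood test of edgeR with p-values adjusted over all genes (Benjamini-Hochberg) and a call at an adjusted p below 0.05. RSV alone lowered 32 of 75 members (42.7%) and raised 3 (4.00%), where 20.4% of all genes were called lower and 20.5% higher, 40.9% in all. RSV added to Vem lowered 31 (41.3%) and raised 1 (1.33%), with 18.7% of all genes lower and 19.2% higher, 37.9% in all. RSV added to TCDD lowered 26 (34.7%) and raised 4 (5.33%), with 19.1% of all genes lower and 18.6% higher, 37.7% in all. This last comparison also differs in TCDD dose if the labels hold. The median log2 fold change of the members was -0.21, -0.15 and -0.24 in the 3 comparisons, against -0.002, 0.026 and -0.006 over all genes. Most falls were therefore modest. Without vehicle 2, RSV 1 or RSV 2, RSV alone gave 19, 22 and 22 calls instead of 35, and it gave 18 when only the libraries compared were fitted. Without Vem 2, RSV+Vem 1 or RSV+Vem 2, RSV added to Vem gave 13, 21 and 18 calls instead of 32, and without TCDD 1, TCDD 2 or RSV+TCDD 1, RSV added to TCDD gave 14, 19 and 14 instead of 30. When the counts were scaled to the ERCC spike-ins, 0 members were called with RSV alone or added to Vem and 11 fell with RSV added to TCDD, with 2.33%, 2.43% and 11.2% of all genes called. The medians of all genes then moved to -0.17, -0.02 and -0.70, and the members differed from them by -0.21, -0.19 and -0.25 on the log2 scale. All 7 melanocyte lineage genes listed were also called lower in each of the 3 comparisons (medians -0.61, -0.78 and -0.48), among them MITF, the lineage transcription factor, by -0.97 ± 0.14 with RSV alone (adjusted p = 8.09e-05), and their part in the members' fall was not tested.

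Across the 3 RSV comparisons, 12 members (16.0%) were called lower every time, against 6.87% of all genes. A further 16 were lower in exactly 2 (10.5% of all genes) and 21 in exactly 1 (16.6%), 0 members were called higher in all 3 (6.77% of all genes), and 0 were called in opposite directions (3.77%). Whether called or not, 45 of the 75 members (60.0%) had a log2 fold change below 0 in all 3 comparisons, against 27.4% of all genes. The 12 were the large-subunit proteins MRPL3, MRPL4, MRPL19, MRPL23, MRPL24, MRPL35, MRPL36, MRPL39, MRPL43 and MRPL48 and the small-subunit proteins MRPS25 and MRPS27. The RSV comparisons are plotted for these 12 and for the members that rose.

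**Figure D2:**
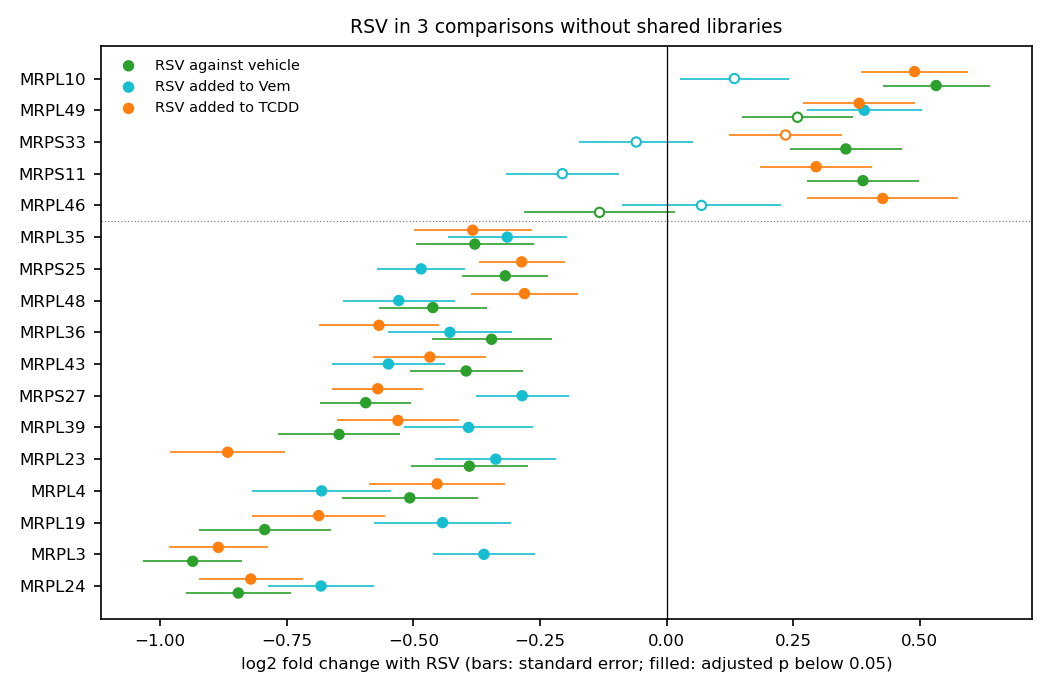
Log2 fold change with RSV (x axis, bars are standard errors) in the 3 comparisons without shared libraries, for the 5 members called higher in at least 1 (above the dotted line) and the 12 called lower in all 3. Filled points have an adjusted p below 0.05; MRPL24 lies between -0.85 and -0.68 in all 3, and under spike-in scaling the 4 members called higher with RSV added to TCDD turn negative there.

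MRPL24, a protein of the bacterial type near the exit of the peptide tunnel, was at 74.8 and 79.8 CPM with vehicle, 45 and 41.1 with RSV, 72.1 and 79.2 with Vem, 47.2 and 47.0 with RSV+Vem, 83.7 and 86.5 with TCDD, and 44.9 and 51.3 with RSV+TCDD. All 6 libraries with RSV were below all 6 without it. Its log2 fold change was -0.85 ± 0.10 (standard error) with RSV alone (adjusted p = 1.36e-05), -0.68 ± 0.11 with RSV added to Vem (adjusted p = 9.77e-05) and -0.82 ± 0.10 with RSV added to TCDD (adjusted p = 2.03e-05). Of the 12 members, MRPL24 was the only 1 whose 3 calls all stood whichever library was left out. MRPL3, a core protein that reaches toward the peptidyl transferase centre, was at 165 and 174 CPM with vehicle, 84.4 and 93.0 with RSV, 91.9 and 105 with Vem, 75.1 and 78.0 with RSV+Vem, 172 and 165 with TCDD, and 85.9 and 96.6 with RSV+TCDD. It was high with vehicle and TCDD and low in the 4 groups that held RSV or Vem. Its level fell 1.91-fold with RSV alone, a log2 fold change of -0.94 ± 0.10 (adjusted p = 3.26e-06), and by 0.89 ± 0.10 on the log2 scale with RSV added to TCDD (adjusted p = 6.1e-06). The fall with RSV added to Vem, where the level was already low, was -0.36 ± 0.10 (adjusted p = 0.00955), a call lost without Vem 2 or RSV+Vem 1 (adjusted p up to 0.126).

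MRPL19, a large-subunit protein at the interface with the small subunit, was at 61.4 and 67.8 CPM with vehicle, 32.7 and 41.7 with RSV, 50.7 and 51.7 with Vem, 34.8 and 41.0 with RSV+Vem, 61.0 and 61.1 with TCDD, and 34.1 and 41.6 with RSV+TCDD. The RSV libraries again formed the lower 6. Its log2 fold changes were -0.79 ± 0.13 with RSV alone (adjusted p = 0.000194), -0.44 ± 0.14 with RSV added to Vem (adjusted p = 0.0166) and -0.69 ± 0.13 with RSV added to TCDD (adjusted p = 0.000719). The call with Vem was lost without Vem 1, Vem 2 or RSV+Vem 1 (adjusted p up to 0.173). MRPL39, specific to mitochondria, was at 32.1 and 36.5 CPM with vehicle and 22.6 and 21.2 with RSV, at 28.9 and 28.3 with Vem and 22.9 and 20.4 with RSV+Vem, and at 33.2 and 32.9 with TCDD and 21.0 and 24.8 with RSV+TCDD. No RSV library reached a library without RSV. The fall was largest with RSV alone among the 3 comparisons, at -0.65 ± 0.12 (adjusted p = 0.000539), and the call with Vem was lost without Vem 1, Vem 2 or RSV+Vem 2 (adjusted p up to 0.141). MRPS27, a pentatricopeptide repeat protein of the small subunit, was at 110 and 117 CPM with vehicle and 72.2 and 78.4 with RSV, at 93.0 and 91.4 with Vem and 76.6 and 74.7 with RSV+Vem, and at 133 and 132 with TCDD and 85.7 and 92.7 with RSV+TCDD. Each pair of groups was apart, with the narrowest gap between RSV+Vem and Vem. Its log2 fold changes were -0.59 ± 0.09, -0.29 ± 0.09 and -0.57 ± 0.09 in that order, and the call with Vem (adjusted p = 0.0219) was lost without either Vem or either RSV+Vem library (adjusted p up to 0.104).

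MRPL23, which lines the tunnel exit, was at 31.4 and 33.8 CPM with vehicle, 27.0 and 22.9 with RSV, 32.8 and 34.8 with Vem, 28 and 25.2 with RSV+Vem, 46.6 and 47.6 with TCDD, and 25.3 and 26.3 with RSV+TCDD. The TCDD libraries were highest, while RSV+TCDD lay in the range of the other RSV libraries. By the labels RSV+TCDD had the lower TCDD dose, so RSV and dose cannot be told apart for this difference. RSV added to TCDD lowered it 1.82-fold, by -0.87 ± 0.11 on the log2 scale (adjusted p = 3.35e-05), and the falls with RSV alone and added to Vem were -0.39 ± 0.12 and -0.34 ± 0.12. Those smaller calls (adjusted p = 0.013 and 0.0343) were lost without vehicle 2 or RSV 2 in the former, and in the latter without either Vem, RSV+Vem or TCDD library (adjusted p up to 0.125 and 0.187). MRPL4, a protein of the tunnel wall, was at 49.1 and 60.1 CPM with vehicle against 41.7 and 35.3 with RSV, at 63.1 and 75.5 with Vem against 47.2 and 38.6 with RSV+Vem, and at 56.7 and 60.9 with TCDD against 41.6 and 44.2 with RSV+TCDD. It fell by 0.51 ± 0.13 with RSV alone, by 0.68 ± 0.14 when RSV was added to Vem and by 0.45 ± 0.13 when it was added to TCDD, on the log2 scale. The call with Vem (adjusted p = 0.000944) was kept without each library, and the others were lost without vehicle 2 or RSV 2 and without TCDD 2 or RSV+TCDD 1 (adjusted p up to 0.0913). MRPL43, specific to mitochondria, was at 62.7 and 68 CPM with vehicle against 53.9 and 45.5 with RSV, at 89.0 and 95.1 with Vem against 62.6 and 63.2 with RSV+Vem, and at 65.8 and 72.3 with TCDD against 46.3 and 53.5 with RSV+TCDD. Its falls were -0.40 ± 0.11, -0.55 ± 0.11 and -0.47 ± 0.11, of which the call with RSV alone was lost without vehicle 2 or RSV 2 (adjusted p up to 0.101) and that with TCDD without RSV+TCDD 1 (adjusted p = 0.0561).

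The remaining members of the 12 were MRPL48, MRPS25, MRPL36 and MRPL35. MRPL48, a mitochondria-specific protein, was at 44.1 and 42.8 CPM with vehicle against 29.9 and 33.1 with RSV, at 41.3 and 46.7 with Vem against 31.7 and 29.0 with RSV+Vem, and at 48.6 and 48.1 with TCDD against 40.3 and 39.3 with RSV+TCDD. It fell by 0.46 ± 0.11 on the log2 scale with RSV alone (adjusted p = 0.00275) and by 0.53 ± 0.11 with RSV added to Vem (adjusted p = 0.00133), and both calls were kept without each library. With TCDD its difference was -0.28 ± 0.11 (adjusted p = 0.0466), a call lost under DESeq2 and without any of 9 libraries (adjusted p up to 0.193). MRPS25, of the small subunit, was at 154 and 145 CPM with vehicle, 115 and 124 with RSV, 148 and 149 with Vem, 105 and 107 with RSV+Vem, 131 in both TCDD libraries, and 106 and 109 with RSV+TCDD. Its RSV libraries were the 6 lowest, and its largest difference was -0.48 ± 0.09 with RSV added to Vem (adjusted p = 0.000339). Its call with RSV alone was lost without RSV 1 (adjusted p = 0.0648) and with TCDD without TCDD 1, TCDD 2 or RSV+TCDD 1 (adjusted p up to 0.0854). MRPL36, a small protein of the bacterial type, had log2 fold changes of -0.35 ± 0.12, -0.43 ± 0.12 and -0.57 ± 0.12, and MRPL35 had -0.38 ± 0.12, -0.31 ± 0.12 and -0.38 ± 0.12. For MRPL36, the call with TCDD was kept without each library, and the others were lost without vehicle 2 or either RSV library and without Vem 2 or RSV+Vem 2 (adjusted p up to 0.177). For MRPL35, each of the 3 calls was lost without some libraries (vehicle 2 or RSV 1, either Vem, RSV+Vem or TCDD library, and TCDD 1 or RSV+TCDD 1), with adjusted p up to 0.258.

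MRPS28 and MRPL42 were among the members that fell most with RSV alone but were not called with RSV added to Vem. MRPS28, a counterpart of a bacterial small-subunit protein, was at 18.1 and 19.8 CPM with vehicle, 10.7 and 11.8 with RSV, 12.7 and 13.6 with Vem, 11.2 and 13.0 with RSV+Vem, 26.9 and 22.5 with TCDD, and 12.2 and 15.1 with RSV+TCDD. It was low in every group with RSV or Vem. It fell by 0.75 ± 0.15 on the log2 scale with RSV alone (adjusted p = 0.000847) and by 0.86 ± 0.14 with RSV added to TCDD (adjusted p = 0.000244), and the difference with RSV added to Vem was -0.13 ± 0.16. MRPL42, specific to mitochondria, was at 72.2 and 64.9 CPM with vehicle, 37.7 and 49.1 with RSV, 32.1 and 38.9 with Vem, and 31.8 and 44.1 with RSV+Vem. The difference with RSV alone was -0.66 ± 0.17 (adjusted p = 0.00658), a call lost without RSV 1 (adjusted p = 0.0792).

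Few members rose with RSV. MRPL10, at the base of the stalk that recruits translation factors, was at 58.7 and 61.7 CPM with vehicle, 94.1 and 80.2 with RSV, 80.3 and 81.5 with Vem, 91.0 and 86.3 with RSV+Vem, 60.7 and 70.1 with TCDD, and 95.4 and 88.0 with RSV+TCDD. It was lowest with vehicle and TCDD. With RSV alone it rose 1.45-fold, by 0.53 ± 0.11 on the log2 scale (adjusted p = 0.000905), a call kept without each library but lost under spike-in scaling. With RSV added to TCDD it rose by 0.49 ± 0.11 (adjusted p = 0.00187), but the call was lost without TCDD 1 (adjusted p = 0.0524) and the sign turned under spike-in scaling, to -0.18. MRPL49, specific to mitochondria, was at 59.3 and 61.8 CPM with Vem against 82.9 and 75.5 with RSV+Vem, and at 60.7 and 61.2 with TCDD against 79.5 and 79.1 with RSV+TCDD. Its groups were well apart, and the differences of 0.39 ± 0.11 (adjusted p = 0.0123) and 0.38 ± 0.11 (adjusted p = 0.0132) were each lost when a library was left out, namely Vem 1, Vem 2 or RSV+Vem 1 in the former and TCDD 1, TCDD 2 or RSV+TCDD 1 in the latter (adjusted p up to 0.115). The difference with TCDD also turned to -0.30 under spike-in scaling. MRPS11 and MRPL46, the divergent neighbours on chromosome 15, were both called higher with RSV added to TCDD, at 0.29 ± 0.11 and 0.43 ± 0.15 on the log2 scale, and turned to -0.40 and -0.24 under spike-in scaling. Both calls were lost, for MRPL46 also under DESeq2, when TCDD 1, TCDD 2 or RSV+TCDD 1 was left out, that of MRPS11 also without RSV+TCDD 2 or any Vem or RSV+Vem library (adjusted p up to 0.29). With RSV alone, MRPS11 differed by 0.39 ± 0.11 (lost without vehicle 1 or RSV 1, adjusted p up to 0.101) and MRPS33, a small-subunit protein, by 0.35 ± 0.11 (lost without vehicle 1 or RSV 2, adjusted p up to 0.154).

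**Figure D3:**
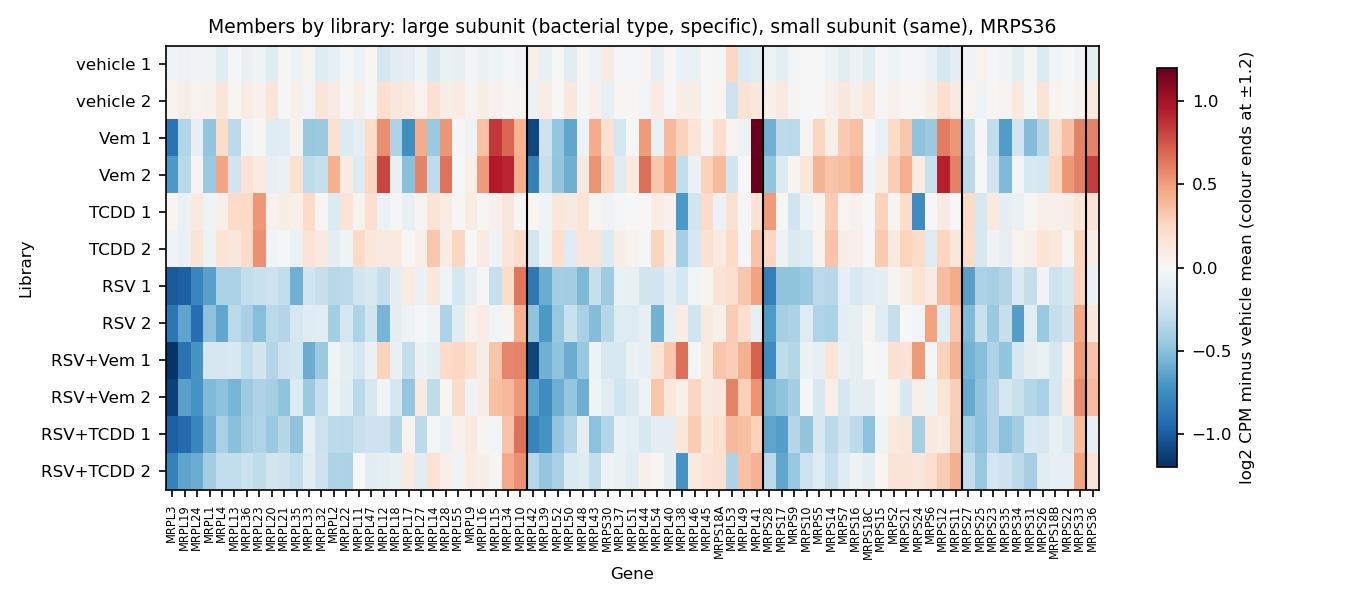
Log2 CPM of each tested member (columns, grouped by subunit and bacterial or mitochondria-specific type, ordered within a group) in each library (rows), as the difference from the mean of the vehicle libraries. Blue is lower and red higher, with colours ending at ±1.2; the 6 rows with RSV are mostly blue, and the Vem rows hold both colours.

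Vem alone raised some members and lowered others, with no common direction. Of 75 members, 25 rose (33.3%) and 16 fell (21.3%), where 25.4% of all genes were called higher and 27.0% lower, 52.4% in all. The median of the members was 0.02 on the log2 scale, against -0.03 over all genes. The large-subunit proteins of the bacterial type had 10 higher and 7 lower, those specific to mitochondria 5 and 3, the small-subunit proteins of the bacterial type 6 and 2, and those specific to mitochondria 3 and 4. MRPS36 was also called higher. The count was 29 without Vem 2. Under spike-in scaling the median of all genes moved to -0.68 and only 6 of 75 members were called, all lower, with 23.4% of all genes called, so the rises below are relative to the other genes of the same libraries. The values of MRPL2, MRPL28, MRPL40, MRPL43, MRPS18A, MRPS18B and MRPS22 turned negative there.

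**Figure D4:**
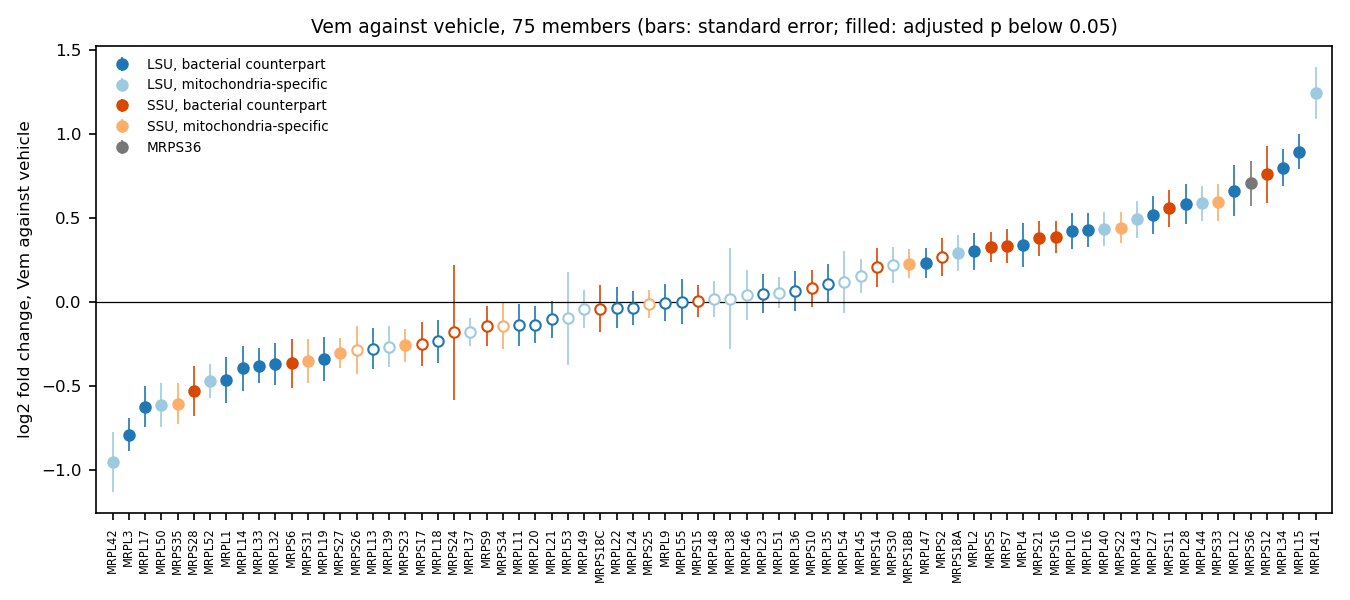
Log2 fold change with Vem against vehicle (y axis, bars are standard errors) for the 75 tested members in order of size, coloured by subunit and type, with filled points at an adjusted p below 0.05. Values run from -0.95 (MRPL42) to 1.25 (MRPL41), and each class holds members in both directions except MRPS36, which stands alone and rose. Under spike-in scaling 7 of the named members that rose turn negative.

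MRPL41, a mitochondria-specific protein near the tunnel exit, was at 31.2 and 37.1 CPM with vehicle and 77.3 and 85.1 with Vem. It was the member that rose most, 2.37-fold or 1.25 ± 0.15 on the log2 scale (adjusted p = 4.89e-06). MRPL15, a bacterial-type protein of the large subunit, went from 61.6 and 66.3 CPM to 115 and 124, a log2 fold change of 0.90 ± 0.10 (adjusted p = 1.87e-06). MRPL34, which was also among the highest members per kilobase, went from 65.2 and 67.4 CPM to 107 and 125, or 0.80 ± 0.11 (adjusted p = 1.16e-05). MRPS12, which shapes the decoding centre of the small subunit, went from 21.5 and 28.4 CPM to 37.8 and 47.3, or 0.76 ± 0.17 (adjusted p = 0.00128). Vem and vehicle libraries did not overlap for any of these, although the vehicle libraries of MRPS12 were further apart than those of MRPL15. MRPS36, which is not a ribosomal protein, rose by 0.71 ± 0.13 (adjusted p = 0.000312). The calls of these 5 genes were kept without each library, and under spike-in scaling their log2 fold changes remained above 0, between 0.06 and 0.60, but were not called.

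Among the members that fell with Vem, MRPL42 was lowest, at 32.1 and 38.9 CPM against 72.2 and 64.9 with vehicle, a 1.93-fold fall or -0.95 ± 0.18 on the log2 scale (adjusted p = 0.000287). MRPL3 fell 1.73-fold, by 0.79 ± 0.10 (adjusted p = 4.99e-06), from the levels given above. MRPL17, of the bacterial type, went from 51.1 and 60.2 CPM to 33.2 and 39.3, or -0.62 ± 0.12 (adjusted p = 0.000423). All libraries with Vem were below those with vehicle for these 3 genes. MRPL50, specific to mitochondria, went from 35.3 and 42.3 CPM to 25.1 and 25.7, or -0.61 ± 0.13 (adjusted p = 0.00095). MRPS35, likewise specific, went from 50.9 and 54.1 CPM to 32.9 and 36.3, or -0.60 ± 0.12 (adjusted p = 0.000498). The calls of these 5 genes were kept when each library was left out.

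In the presence of RSV, Vem changed fewer members. RSV+Vem against RSV gave 11 members higher (14.7%) and 2 lower (2.67%), with 11.2% of all genes higher and 13.1% lower, 24.4% in all, and a median of 0.07 against 0.002 over all genes. This comparison shares no libraries with Vem against vehicle. In both, 8 members were called higher (10.7%, against 8.35% of all genes) and 2 lower (2.67%, against 9.49%), and 0 were called in opposite directions (0.622% of all genes). The 8 were MRPL2, MRPL12, MRPL15, MRPL28, MRPL34, MRPL40, MRPL43 and MRPS22, and the 2 were MRPL17 and MRPL33. MRPL15 was at 52.8 and 62.4 CPM with RSV and 80.4 and 82.3 with RSV+Vem, or 0.50 ± 0.10 (adjusted p = 0.00247), the only 1 of the 13 calls kept without each library. MRPL12, the stalk protein that contacts translation factors, was at 26.7 and 35.4 CPM with vehicle, 45.2 and 53.6 with Vem, 25.3 and 20.9 with RSV, and 36.9 and 30 with RSV+Vem. It was higher with Vem in each pair, by 0.67 ± 0.15 (adjusted p = 0.00148) and by 0.55 ± 0.16 (adjusted p = 0.0184), and the latter call was lost without RSV 2 or RSV+Vem 1 (adjusted p up to 0.227).

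The other members called higher in both Vem comparisons had log2 fold changes of 0.28 to 0.36 in the presence of RSV. MRPS22, of the small subunit, differed by 0.44 ± 0.09 with Vem alone and 0.28 ± 0.09 in the presence of RSV, MRPL28 by 0.59 ± 0.12 and 0.34 ± 0.12, MRPL40 by 0.44 ± 0.10 and 0.34 ± 0.10, MRPL43 by 0.49 ± 0.11 and 0.34 ± 0.11, MRPL34 by 0.80 ± 0.11 and 0.36 ± 0.11, and MRPL2 by 0.30 ± 0.11 and 0.31 ± 0.11. Their adjusted p in the presence of RSV ranged from 0.0204 for MRPL40 to 0.0498 for MRPL2, and each of these calls was lost without RSV+Vem 1 and without RSV 2 (adjusted p up to 0.35). The call of MRPL2 with Vem alone was lost without vehicle 1 or Vem 2 (adjusted p up to 0.298). The difference of MRPL17 in the presence of RSV was -0.39 ± 0.12 (adjusted p = 0.0279) and that of MRPL33 was -0.33 ± 0.11 (adjusted p = 0.0331), both lost without RSV 1, RSV+Vem 1 or RSV+Vem 2 (adjusted p up to 0.256). Called in the presence of RSV but not with Vem alone were MRPS14 at 0.48 ± 0.12 (lost without RSV+Vem 1, adjusted p = 0.0746), MRPL54 at 0.63 ± 0.19 and MRPL55 at 0.42 ± 0.14 (both lost without RSV 2, RSV+Vem 1 or RSV+Vem 2, adjusted p up to 0.182). The comparison gave 1 call without RSV+Vem 1, 4 without RSV 2, 6 without RSV+Vem 2, 8 without either TCDD library, and 3 when only the libraries compared were fitted. DESeq2 did not call MRPL54, MRPL55 or MRPL2 in the presence of RSV (adjusted p = 0.0505, 0.0741 and 0.0615). Under spike-in scaling, where the median of all genes was -0.52, 0 members were called and the 11 higher values turned negative except those of MRPL12 and MRPL54.

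TCDD changed few members detectably. TCDD against vehicle gave 1 member higher (1.33%) and 0 lower, with 4.50% of all genes higher and 1.90% lower, 6.41% in all, and 7 members had an unadjusted p below 0.05. DESeq2 also called 1. The called member was MRPL23, at 46.6 and 47.6 CPM against 31.4 and 33.8 with vehicle, a rise of 1.44-fold or 0.53 ± 0.11 on the log2 scale (adjusted p = 0.00979). The groups were apart, but the call was lost without vehicle 1, TCDD 1 or TCDD 2 (log2 fold changes of 0.48, 0.55 and 0.51). Under spike-in scaling the log2 fold change of MRPL23 was 0.02 and was not called, where the median of all genes was -0.51. In the presence of RSV, TCDD gave 0 called members by edgeR and 0 by DESeq2, with 3.61% of all genes higher and 2.08% lower, 5.70% in all, and 5 members at an unadjusted p below 0.05. MRPL23 was then at 25.3 and 26.3 CPM against 27.0 and 22.9 with RSV. If the labels hold, the TCDD dose was lower in the presence of RSV than without it. The median of the members was 0.05 and 0.06 in the 2 comparisons, and the median standard error of a member was 0.11 in each. Scaled to the spike-ins, TCDD added to RSV gave 24 of 75 members lower, with 40.1% of all genes called, the median of all genes at -1.02 and that of the members at -0.99.

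Whether RSV and Vem acted additively was tested with an interaction, the effect of Vem in the presence of RSV minus its effect alone on the log2 scale. It was called for 10 of 75 members (13.3%), 4 above 0 and 6 below, with 22.7% of all genes called (12.0% above, 10.7% below). For the 6 below 0, Vem libraries were high and RSV+Vem libraries were close to RSV or between Vem and RSV. MRPL41 was at 47.7 and 31.8 CPM with RSV and 55.7 and 49.6 with RSV+Vem, so the difference with Vem was 0.41 ± 0.16 there (adjusted p = 0.0658) against 1.25 ± 0.15 without RSV, and the interaction was -0.84 ± 0.22 (adjusted p = 0.0122). MRPL44, with a fold related to RNase III, was at 59.3 and 56.5 CPM with vehicle, 82.7 and 91.6 with Vem, 49.8 and 54.0 with RSV, and 54.2 and 55.6 with RSV+Vem. Only its Vem libraries stood apart, and the interaction was -0.51 ± 0.15 (adjusted p = 0.0229). MRPS11 was at 37.1 and 42.9 CPM with vehicle, 57.4 and 60.7 with Vem, 54.5 and 50.3 with RSV, and 53.4 and 48.7 with RSV+Vem. Each agent alone gave a higher level than vehicle and the combination gave no more, with an interaction of -0.59 ± 0.16 (adjusted p = 0.0125).

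Above 0, MRPL3 had an interaction of 0.57 ± 0.14 (adjusted p = 0.0077). Its difference with Vem was -0.79 ± 0.10 without RSV and -0.21 ± 0.10 with it, which did not pass (adjusted p = 0.132), from the levels given above. MRPL1, which forms the stalk beside the exit site of tRNA, was at 20 and 21.4 CPM with vehicle, 14.9 and 15.2 with Vem, 13.2 and 14.7 with RSV, and 17.9 and 14.3 with RSV+Vem. All treated libraries were below vehicle. RSV lay below Vem, RSV+Vem 1 lay above both and RSV+Vem 2 within the range of RSV. The interaction of MRPL1 was 0.68 ± 0.19 (adjusted p = 0.0183), and 0.49 without RSV+Vem 1. MRPS35, at 41.1 and 43.4 CPM with RSV and 37.7 and 45.5 with RSV+Vem, had 0.57 ± 0.17 (adjusted p = 0.024), and MRPL42 had 0.74 ± 0.25 (adjusted p = 0.0462). Each of the 10 calls was lost without at least 1 library. The number of members called, whichever they were, was 2 without Vem 2 or RSV+Vem 2, 4 without Vem 1, 5 without vehicle 1 or RSV 1, 6 without TCDD 1 or TCDD 2, and 0 under spike-in scaling. DESeq2 called 15 (4 above 0 and 11 below, with 21.5% of all genes called), and a minimum of 10 counts in every library gave 14 (5 and 9, with 28.7%). RSV and TCDD gave 0 called interactions among the members by edgeR and 0 by DESeq2, with 0.124% of all genes called and 2 members at an unadjusted p below 0.05.

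**Figure D5:**
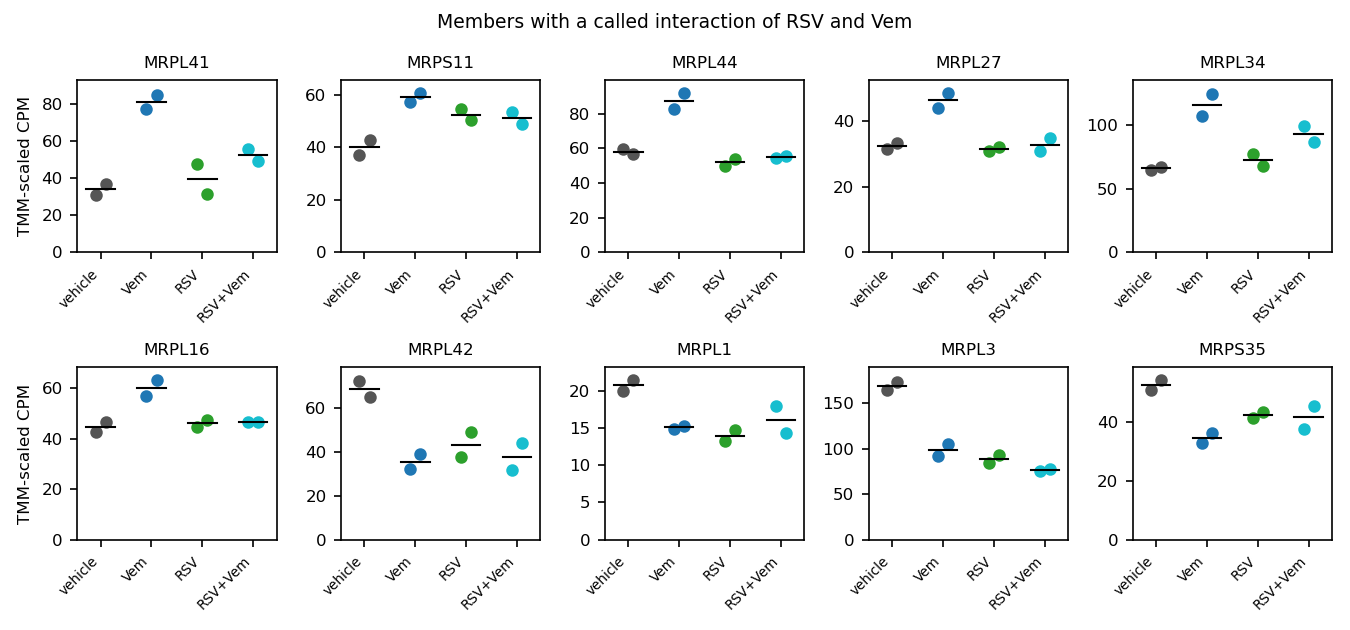
TMM-scaled CPM per library (points) and group mean (line) of the 10 members with a called interaction of RSV and Vem, each on its own y axis from 0, in the vehicle, Vem, RSV and RSV+Vem groups. MRPL41 to MRPL16 have their highest values with Vem, and MRPL42 to MRPS35 have their highest with vehicle.

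Within the members, the 3 MRPS18 paralogs sit at different places in the particle, MRPS18A in the large subunit and the others in the small subunit. MRPS18B was highest, between 101 and 146 CPM over the 12 libraries, MRPS18A lay between 51.8 and 70.8, and MRPS18C between 18.8 and 29.0. MRPS18B fell with RSV added to Vem, from 139 and 146 to 107 and 106 CPM, by 0.42 ± 0.09 on the log2 scale (adjusted p = 0.00105), a call kept without each library. With RSV alone its difference was -0.26 ± 0.08 (adjusted p = 0.0231), lost without vehicle 2, RSV 1 or RSV 2 (adjusted p up to 0.111). With Vem alone MRPS18A and MRPS18B differed by 0.29 ± 0.11 and 0.23 ± 0.08 (adjusted p = 0.0316 and 0.03). Both calls were lost when single vehicle or Vem libraries were left out (log2 fold changes down to 0.20 and 0.19). That of MRPS18B was also lost without TCDD 1 or TCDD 2, libraries outside the comparison. Under spike-in scaling the 2 values turned to -0.36 and -0.42. MRPS18C was called in 0 comparisons, and 12 members (16.0%, against 21.7% of all genes) were called in none of the 7 comparisons of 2 groups. Besides MRPS18C these were MRPL9, MRPL11, MRPL18, MRPL37, MRPL38, MRPL45, MRPL51, MRPL53, MRPS2, MRPS24 and MRPS26. MRPL37 was among the highest of all members, from 136 CPM with RSV+Vem to 170 with TCDD, whereas MRPS24, MRPL38 and MRPL53 ranged from 0.632 to 4.63 CPM.

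Other genes of mitochondrial translation were grouped by role, and their counts stand against the 20.4%, 18.7% and 19.1% of all genes called lower in the 3 RSV comparisons. Of 16 translation factors and mRNA-handling proteins, 9 fell and 1 rose with RSV alone, 9 and 1 with RSV added to Vem and 10 and 0 with RSV added to TCDD, with medians of -0.39, -0.35 and -0.36 on the log2 scale. The initiation factor MTIF3 fell by 0.58 ± 0.13 with RSV alone (adjusted p = 0.00217), and the elongation factor TUFM by 0.72 ± 0.09 with RSV added to Vem (adjusted p = 8.56e-06). Of 22 assembly and rRNA modification factors, 4 fell with RSV alone, a share near that of all genes, and 2 rose, with a median of 0.02. The largest fall there was that of the pseudouridine synthase RPUSD4, at -0.82 ± 0.12 (adjusted p = 5.81e-05). Of 7 mitoribosomal proteins under other symbols, only PTCD3 was called lower in the RSV comparisons, and the medians of the 7 were -0.01, -0.09 and 0.03. PTCD3 fell in all 3, by 0.46 ± 0.09, 0.41 ± 0.10 and 0.57 ± 0.09, and MRP63 rose by 0.31 ± 0.11 with RSV added to Vem. Whether the lists differ from the members in the share that fell was not tested.

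Respiratory chain subunits, the genes whose mitochondrial partners the members help to make, were counted in the same fits. Over all genes, 25.4% were called higher and 27.0% lower with Vem, and 20.5% and 20.4% with RSV alone. These shares were 19.2% and 18.7% with RSV added to Vem, 18.6% and 19.1% with RSV added to TCDD, and 4.50% and 1.90% with TCDD. With Vem 67 of 75 respiratory subunits rose and 1 fell, with a median of 0.65 on the log2 scale, and with RSV added to Vem 64 fell and 0 rose (median -0.62). RSV alone lowered 26 and raised 4 (median -0.21), and RSV added to TCDD lowered 38 and raised 1 (median -0.29). Of the 13 proteins encoded by mitochondrial DNA, 12 rose with Vem (median 0.82) and 3 with RSV (median -0.04), and 11 fell with RSV added to Vem (median -0.55). The 2 mitochondrial rRNAs, which poly-A selected libraries capture only in part, rose with RSV in all 3 comparisons (medians 1.01, 0.67 and 0.69). Cytosolic ribosomal proteins (79 genes) fell in all 3 RSV comparisons (47, 30 and 56 lower, 0 higher) and rose with TCDD (64 higher, 0 lower, median 0.42), where 1 member rose. Of 14 regulators of mitochondrial genes, 8 fell and 0 rose with RSV alone, with MYC at -2.12 ± 0.13 and PPARGC1A at -1.18 ± 0.15. With Vem alone 2 of the 14 rose and 5 fell (median -0.31). ESRRA rose by 1.32 ± 0.10 and PPARGC1A by 0.64 ± 0.14, while MYC fell by 2.63 ± 0.14 and PPARGC1B, a paralog of PPARGC1A, by 1.74 ± 0.18. Of 15 cell cycle genes, 15 fell with Vem (median -1.65), 13 rose with RSV added to Vem (median 1.11), and 5 fell and 3 rose with RSV alone. Their part in the members' changes was not tested.

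Features that the rule did not use were set beside the changes as a description. Over the 75 members, the log2 fold change with Vem had a Spearman rho of 0.31 with the GC content of the transcript, and 0.32 over 12975 tested genes with a transcript. In the presence of RSV, rho for Vem was 0.31 over the members and 0.05 over all genes. The points of such a correlation share the same libraries. The 25 members that rose with Vem had a median GC content of 51.1%, the 16 that fell 42.7% and the 34 not called 50.9%. An ETS match was present in 12 of 21 promoter windows of the former, 5 of 15 of the latter and 10 of 30 of the rest, and a YY1 match in 5, 5 and 10. The XRE core was present in 11, 10 and 17 of these windows. Of the 12 members lower in all 3 RSV comparisons, 10 had a window. Of these, 3 held an ETS match, 2 a YY1 match and 4 the XRE core, against 27, 20 and 38 of 66 over all tested members. Transcript length had a rho between -0.16 and -0.01 with the 3 RSV changes over the members. For GC content, rho was 0.23 with RSV alone, -0.05 with RSV added to Vem and 0.32 with RSV added to TCDD. Over all genes it was 0.26, -0.15 and 0.23.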

How the data were processed

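The authors made stranded poly-A mRNA libraries, mapped them with STAR 2.4.0a to hg19 and counted primary alignments per gene symbol with featureCounts of Subread 1.5.0-p3. The deposited values are raw counts without normalization, and the annotation release that was counted is not given in the sources used here. The 96 control sequences (92 ERCC) were left out. Genes were kept with filterByExpr by group, scaled with TMM factors and fitted with edgeR 4.0.16 (R 4.3.3) by quasi-likelihood over all 12 libraries with group as the only factor. Comparisons were tested two-sided with the quasi-likelihood F test and Benjamini-Hochberg adjustment over 16080 genes, and called below 0.05. CPM values are TMM-scaled. With 2 libraries per group a lone library was assumed to vary like the other groups.

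Named members were the 5 largest increases and decreases per comparison among called members with non-overlapping groups whose higher group averaged 50 counts or more, called interactions, members called in every comparison of 1 agent, the MRPS18 paralogs and the extremes per kilobase. The members, lists and rules were chosen with earlier results of these data known. The roles of members and lists were written from general knowledge. Alternatives were DESeq2 1.42.0, RLE factors, scaling to ERCC counts, no filter, a minimum of 10 counts in every library, blocking on the replicate number, fitting only the libraries compared, leaving out each library, and, added after seeing the data, a robust prior spread. The fits were tested on simulated data. Counting intervals would cover counting error only, since reads carry no molecular identifiers. Plots used matplotlib 3.10.9 (Python 3.11.15).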

Additional observations from a re-analysis of the deposited data

Results flagged for a closer look

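The effect of Vem on 10 members differed between cells with and without RSV, by an interaction term in edgeR's quasi-likelihood model with Benjamini-Hochberg adjustment. The log2 difference between the effects was -0.84 for MRPL41 (adjusted p = 0.0122), -0.59 for MRPS11 (0.0125), -0.51 for MRPL44 (0.0229), -0.47 for MRPL27 (0.0472), -0.44 for MRPL34 (0.0497) and -0.42 for MRPL16 (0.0494). It was 0.57 for MRPS35 (adjusted p = 0.024), 0.57 for MRPL3 (0.0077), 0.68 for MRPL1 (0.0183) and 0.74 for MRPL42 (0.0462). The 10 members made up 13.3% of those tested, against 22.7% of all genes with a called interaction.

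For MRPL27 the Vem libraries were at 44 and 48.7 CPM and the other libraries of the 4 groups between 30.8 and 34.9. For MRPL16 they were at 57.0 and 63.5 CPM and the others between 42.6 and 47.5. The call of MRPL3 was lost without Vem 1 (adjusted p = 0.0516), and those of MRPL16, MRPL27 and MRPL34 were lost without 11, 9 and 9 of the 12 libraries in turn (adjusted p up to 0.226). Both RSV+Vem libraries had the lowest RIN values, 8.7 and 8.6, and RSV+Vem 2 had the fewest counts. Their part in these results was not tested.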

How the results depend on the processing

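Scaling to the ERCC spike-ins changed the results most. The members called were then 6 for Vem against vehicle, 0 for TCDD against vehicle, 0 for RSV against vehicle, 0 for Vem added to RSV, 24 for TCDD added to RSV, 0 for RSV added to Vem, 11 for RSV added to TCDD and 0 for the interaction of RSV and Vem. Under that scaling these log2 fold changes turned negative: for Vem added to RSV, MRPL15 (-0.0185), MRPS14 (-0.0279), MRPL55 (-0.10), MRPS22 (-0.25), MRPL2 (-0.21), MRPL43 (-0.20), MRPL28 (-0.16), MRPL34 (-0.13) and MRPL40 (-0.14), for RSV added to TCDD, MRPL10 (-0.18), MRPL46 (-0.24), MRPL49 (-0.30) and MRPS11 (-0.40), and for Vem against vehicle, MRPS22 (-0.21), MRPL2 (-0.35), MRPL43 (-0.16), MRPL28 (-0.0654), MRPL40 (-0.22), MRPS18A (-0.36) and MRPS18B (-0.42). Fitting only the libraries compared left 18 members called with RSV alone and 3 for Vem added to RSV, from fewer samples. When each library was left out, the counts ranged from 29 to 42 for Vem against vehicle, 0 to 1 for TCDD against vehicle, 19 to 36 for RSV against vehicle, 1 to 14 for Vem added to RSV, 13 to 32 for RSV added to Vem, 14 to 34 for RSV added to TCDD and 2 to 12 for the interaction of RSV and Vem, and they were 0 for TCDD added to RSV and for the interaction of RSV and TCDD. Of 95 named values, 90 kept direction and call under DESeq2, 91 with RLE factors, 93 with at least 10 counts in every library and 76 without a filter, and the others kept their direction but not their call.

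Replicate numbers showed no uniform pairing of the libraries: the differences between replicates 2 and 1 correlated above 0.1 in 6 of 15 pairs of groups and below -0.1 in 4 (range -0.37 to 0.43). Such mixed values cannot settle whether some groups were handled together. With the replicate block the counts were 41 for Vem against vehicle, 1 for TCDD against vehicle, 35 for RSV against vehicle, 12 for Vem added to RSV, 32 for RSV added to Vem, 32 for RSV added to TCDD and 11 for the interaction of RSV and Vem, and 3 of 95 named calls were lost, the interaction of MRPL34 (adjusted p = 0.0533), MRPL28 for Vem added to RSV (0.0502) and MRPL48 for RSV added to TCDD (0.05). With 2 libraries a group, counting depth and the spread between replicates limit what can be detected, and MRPS24, MRPL38 and MRPL53, under 5 CPM, had standard errors of 0.26 to 0.41 in the comparisons of 2 groups.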
